A study of Mus musculus with 5 samples.

Results

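The Ikaros zinc finger family has 5 genes in the mouse, Ikzf1 (Ikaros), Ikzf2 (Helios), Ikzf3 (Aiolos), Ikzf4 (Eos) and Ikzf5 (Pegasus), and they were taken by name from 21887 protein-coding genes. H3K27ac, an acetylation of histone H3 found at active promoters and enhancers, was mapped around each of them by ChIPmentation, in which the Tn5 transposase adds sequencing adapters to immunoprecipitated chromatin. The cells came from mouse bone marrow and were sorted as CD45.2+ cells that lack lineage markers and carry Sca1 and Kit, the gate for stem cells and multipotent progenitors (HSC/MPP). All 4 H3K27ac libraries and the 1 input library were labelled Mll3/4 deleted, that is, without the histone methyltransferase genes also named Kmt2c and Kmt2d. The labels name no Cre driver, age or number of animals, nothing says that the libraries came from separate mice, and no other genotype was analysed here. The values came from 1 list of 22948 peaks for the whole set, whose name calls it an overlap set of H3K27ac peaks over input. How it combines the libraries is not stated, and it has no values of single libraries. The values therefore carry no replicate error, no test was possible and each comparison below is a description.

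Ikaros proteins bind DNA through zinc fingers near the amino end and pair with each other through zinc fingers near the carboxyl end. Ikaros acts from the stem cell stage and is needed for the lymphoid lineages, Aiolos acts later in B-cell development, and Helios and Eos are known mainly from T cells, regulatory T cells among them. Pegasus is the most distant relative and is broadly expressed. The proteins recruit the NuRD chromatin remodelling complex and other corepressors, and they can both silence and activate genes of lymphoid development.

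Most peaks of the family lay at a single member. Ikzf1 had 15 peaks at its ends and in its body, Ikzf3 and Ikzf5 had 1 each, and Ikzf2 and Ikzf4 had 0. Of the 17 such peaks in the family, 88.2% were at Ikzf1, and they made up 92.1% of the summed width of 27823 bp. Many of the Ikzf1 peaks were weak: when −log10 q had to reach 5, Ikzf1 had 2 such peaks, Ikzf3 and Ikzf5 had 1 each, and Ikzf2 and Ikzf4 had 0. A peak was counted at an end when it overlapped the 1 kb on either side of a gene end, in the body when its summit lay elsewhere inside the gene, and in the flanks when its summit lay outside within 100 kb of an end. By this rule 2 of the 5 members, Ikzf1 and Ikzf5, had a peak at an end, against 36.2% of all protein-coding genes, so the share of the family was near that of genes in general. A peak at an end or in the body was found at 3 members, against 43.8% of all genes.

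**Figure D1:**
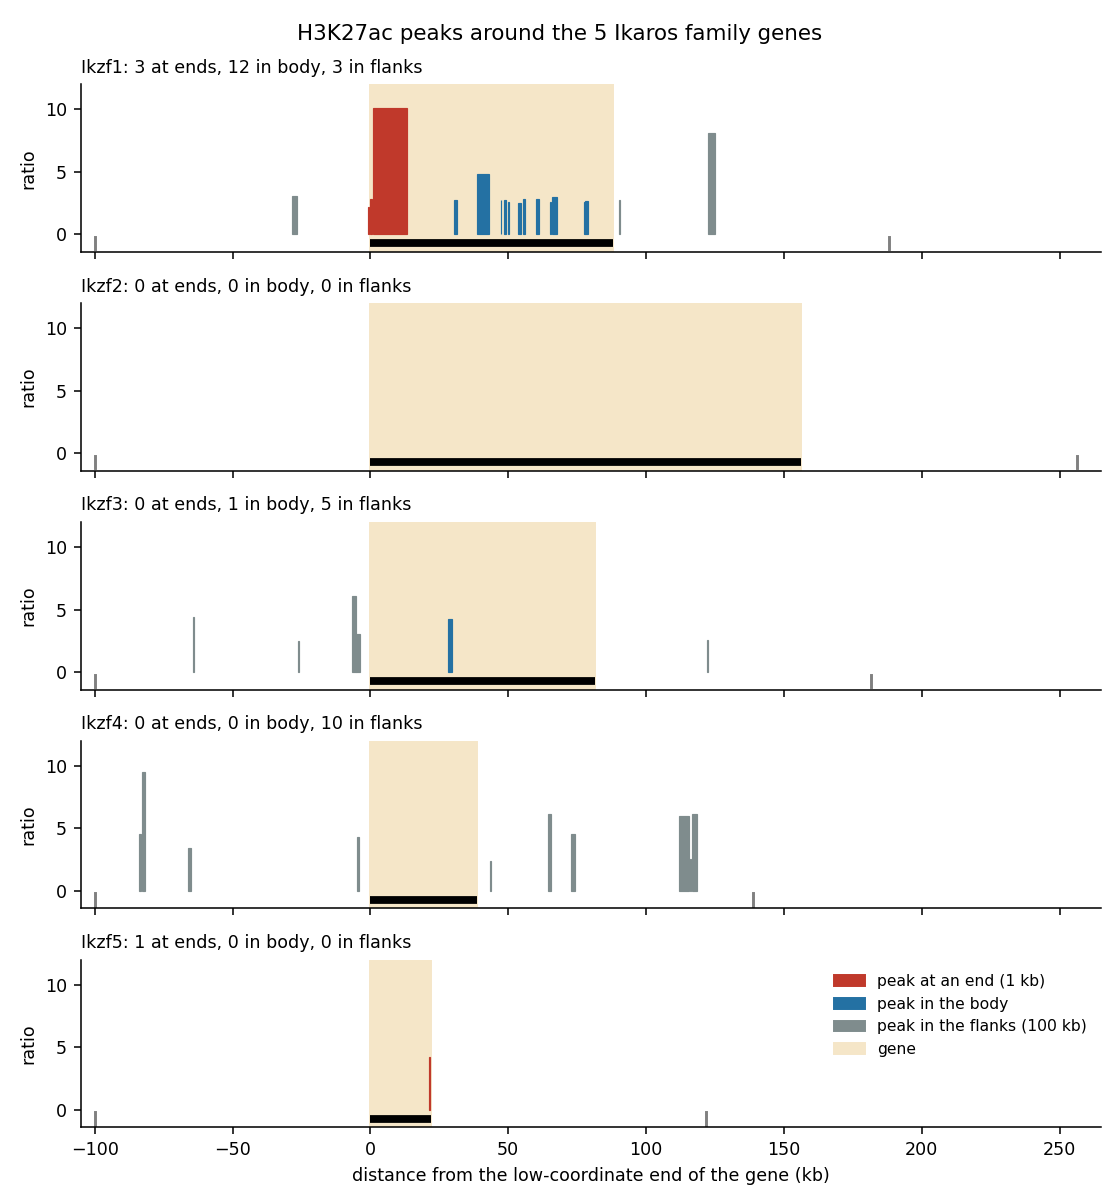
Peaks around each family member, drawn from the gene's low-coordinate end in kb. Bar height is the authors' enrichment ratio, bar width the peak width (with a thin outline), the black line the gene and the grey ticks the limits of the 100 kb flanks. Ikzf1 has 12 peaks in its body and a broad peak with a ratio of 10.1 at its start, whereas Ikzf2 has no peak in the window.

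Annotated starts with sequence were found for 2 of the 5 members, Ikzf1 with 2 starts and Ikzf5 with 1 (RefSeq, GRCm38.p6). The 250 bases before each start are shown because they lie in or beside the strongest peak of their gene, and because the starts of Ikzf1 differ in base composition. Each is written 5′ to 3′ along the gene, and capitals mark GGGAA, the core of the Ikaros recognition sequence, on either strand.
Ikzf1 first start, chr11:11685675-11685924, plus strand: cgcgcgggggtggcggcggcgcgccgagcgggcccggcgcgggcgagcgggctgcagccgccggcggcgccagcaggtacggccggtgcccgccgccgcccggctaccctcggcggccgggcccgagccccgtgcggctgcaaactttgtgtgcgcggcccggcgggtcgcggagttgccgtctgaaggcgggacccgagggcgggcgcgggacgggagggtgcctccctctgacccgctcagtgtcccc
Ikzf1 second start, chr11:11689927-11690176, plus strand: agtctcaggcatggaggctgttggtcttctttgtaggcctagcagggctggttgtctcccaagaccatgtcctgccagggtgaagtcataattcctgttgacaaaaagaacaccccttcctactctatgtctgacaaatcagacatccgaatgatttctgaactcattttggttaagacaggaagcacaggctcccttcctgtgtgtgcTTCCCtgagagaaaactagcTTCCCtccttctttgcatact
Ikzf5 start, chr7:131410479-131410728, minus strand: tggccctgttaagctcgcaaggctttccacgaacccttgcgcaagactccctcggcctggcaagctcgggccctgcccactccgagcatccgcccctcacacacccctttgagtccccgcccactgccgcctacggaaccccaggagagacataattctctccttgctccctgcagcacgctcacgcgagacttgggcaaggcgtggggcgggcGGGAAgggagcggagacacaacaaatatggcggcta

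The first start of Ikzf1 held 44 CG dinucleotides in these 250 bases and was 82.0% G and C. At least as many CG were held by 0.668% of 21263 promoter stretches cut to the same length. The second start, 4.25 kb downstream, held 1 CG and was 47.6% G and C, and 93.4% of promoter stretches held at least that many. The start of Ikzf5 held 18 CG, a number reached by 29.0%. GGGAA occurred 0 times before the first start of Ikzf1, 2 times before the second and 1 time before the start of Ikzf5. At least 1 match was present in 56.8% of all promoter stretches, so its presence was common. The Runx core TGTGGT, the ETS sequence CCGGAA and the E-box CAGCTG, also searched on both strands, had 0 matches in the 3 stretches. They were present in 12.4%, 15.0% and 12.1% of all stretches.

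Ikzf1 encodes Ikaros, the founding member and the one tied most closely to lymphoid priming of early progenitors. The gene, with the identifier 22778, spans chr11:11684962-11772930, or 88.0 kb. Its strongest peak lay at chr11:11685823-11698272 and was 12450 bp wide, with an enrichment ratio of 10.1 and −log10 q of 35.4. The ratio is the authors' own value for the height of the H3K27ac pileup over background at a peak. The peak was the widest of the list but for 6 others, and only 0.118% of all peaks were wider than 10 kb. By ratio it stood at place 485 of 22948 peaks. The median peak of the list was 854 bp wide with a ratio of 3.27.

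Both starts of Ikzf1 lay inside this broad peak. It began 102 bp before the first start and reached 12.3 kb past it, and its summit lay 5.55 kb downstream of the first start and 1297 bp downstream of the second. The summit was thus nearer to the CG-poor start. Across genes with an annotated start, 38.0% had a peak within 1 kb of a start. The low end of the gene lay 963 bp before the first start, and a small peak at chr11:11684879-11685437, with a ratio of 2.84, covered it. Another lay just outside the gene at chr11:11684235-11684553, with a ratio of 2.21. The weaker of these had −log10 q of 0.518, short of a q-value of 0.05. The lncRNA gene Gm11999, which overlaps this end of Ikzf1, had its own end 188 bp from the broad peak, so the peaks at this end cannot be given to one locus alone.

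The broad peak began inside the gene and its summit lay further in, so its placement at an end of the gene rests on the window. That it covers both annotated starts does not depend on the window. With a window of 500 bp, or with a summit required in the window, the strongest ratio at an end of Ikzf1 was 2.84, and the broad peak counted as a body peak. The total for the gene was 18 peaks in each case.

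The body of Ikzf1 carried 12 further peaks, from 30.2 to 77.3 kb downstream of the first start. They followed a stretch of 17.2 kb without a peak, and 10 of them lay beyond the midpoint of the gene. The strongest was at chr11:11723444-11727913, 39.9 kb downstream of the first start, with a width of 4470 bp, a ratio of 4.86 and −log10 q of 9.06. Next came chr11:11750806-11752464 with a ratio of 3.03 and chr11:11740161-11740898 with a ratio of 2.87. These 3 were the highest of a row of mostly weak peaks. Body peaks had a median ratio of 2.74 (range 2.48 to 4.86) and a median width of 770 bp (range 237 to 4470 bp), and 11 of the 12 had a ratio under the median of the whole list. A q-value above 0.05 was attached to 4 of them, and to 21.2% of all peaks.

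**Figure D2:**
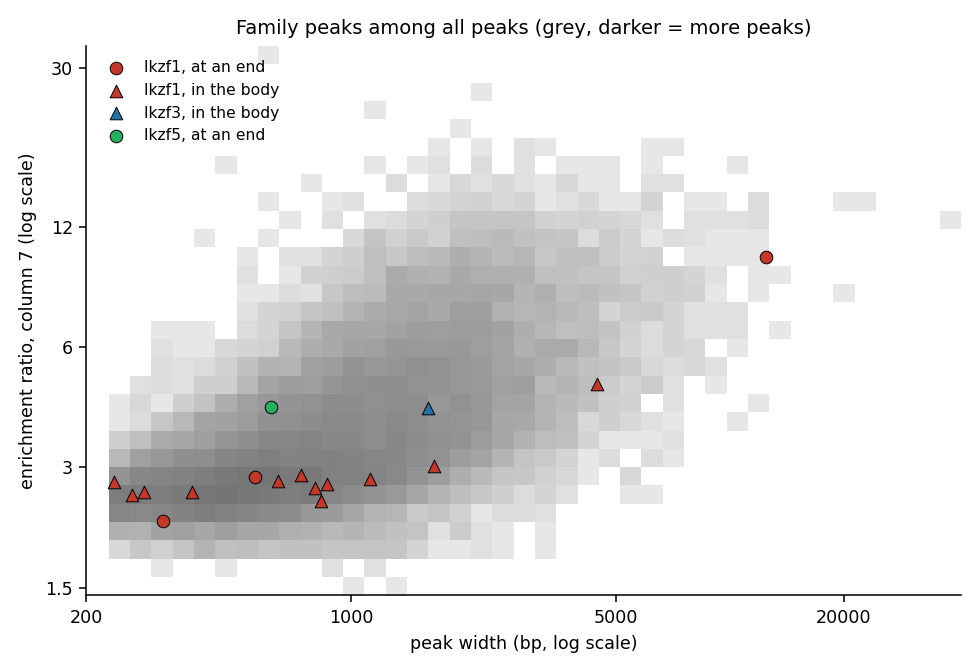
Enrichment ratio against peak width, both on log scales, for all 22948 peaks (grey bins, darker where more peaks fall) and for the peaks at ends (circles) and in bodies (triangles) of family genes. The broad Ikzf1 peak of 12450 bp is the widest of the family, with 6 wider peaks in the list, and most other Ikzf1 peaks lie among the weak peaks of the list.

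Together the peaks at the ends and in the body of Ikzf1 measured 25615 bp in width, and peaks covered 28.7% of the gene. The broad peak gave 48.6% of that width. Among all protein-coding genes, 99, or 0.452%, had 15 or more such peaks, and Ikzf1 took place 48 by summed width. Since long genes can hold more peaks, genes of similar length were also examined: of 1647 genes within 25% of the length of Ikzf1, 0.911% had at least as many, and their median was 1. Of the 15 peaks of Ikzf1, 5 had a q-value above 0.05, and these shares of genes hold for the full list alone. A ratio of 10.1 or more was reached by 527 genes, or 5.50% of those with a peak at an end or in the body.

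Joining peaks within 12 kb of each other placed Ikzf1 in 2 domains. The first, at chr11:11684235-11698272, held 3 peaks and ranked 47 of 13379 domains by the sum of ratio times width. The second, at chr11:11715426-11775387, spanned 59962 bp with 13 peaks and ranked 442. The broad peak, with the highest ratio at the gene, lay in the first domain, and the ratios of the other peaks of both domains ran from 2.21 to 4.86.

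In the flanks of Ikzf1 there were 3 peaks. One at chr11:11656654-11658329, 27.6 kb before the low end, had a ratio of 3.11, and one at chr11:11775027-11775387, 2.26 kb past the high end, had a ratio of 2.78. For both, Ikzf1 was the nearest protein-coding gene. The third and strongest, at chr11:11807500-11810085 with a ratio of 8.14, had its summit 347 bp from an end of Fignl1, the neighbouring gene, and 35.7 kb from Ikzf1.

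**Figure D3:**
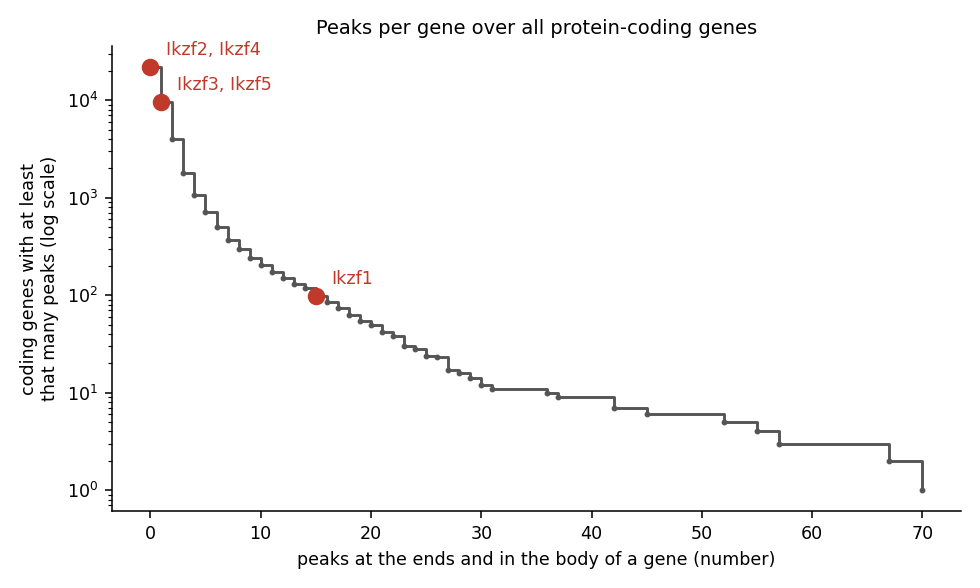
Number of protein-coding genes (log scale) with at least the given number of peaks at their ends and in their body. Ikzf1, with 15 peaks, lies among the 99 genes with that many or more, while Ikzf3 and Ikzf5 have 1 peak and Ikzf2 and Ikzf4 have 0.

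Ikzf3 encodes Aiolos, which follows Ikaros in B-cell development. The gene, with the identifier 22780, lies on the same chromosome at chr11:98464610-98546031 and is 81.4 kb long, close to Ikzf1 in size. It had no peak at either end and 1 in its body, at chr11:98492759-98494350, 28.9 kb from the low end. That peak was 1592 bp wide, with a ratio of 4.22 and −log10 q of 6.27. It was taller than 11 of the 12 body peaks of Ikzf1, and peaks covered 1.96% of the gene. Among 1715 genes of similar length, 61.8% had at least 1 peak at an end or in the body, and 46.3% had one at an end.

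The flanks of Ikzf3 held 5 peaks, and for each of them another gene was nearer. The strongest, at chr11:98457968-98459206 with a ratio of 6.12, had its summit 592 bp from an end of Mien1 and 5.79 kb from Ikzf3. The next, at chr11:98400188-98400769 with a ratio of 4.38, was nearest to Pgap3. One at chr11:98459491-98460762, with a ratio of 3.09, was the closest to Ikzf3, at 4.69 kb. The others, nearest to Erbb2 and Ormdl3, had ratios of 2.502 and 2.537. No strand was at hand for Ikzf3, so the body peak could not be placed relative to its start.

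Ikzf5 encodes Pegasus. The gene, with the identifier 67143, lies at chr7:131388649-131410518 and is 21.9 kb long. Its 1 peak was also the only one within 100 kb. It lay at chr7:131409823-131410438, was 616 bp wide and had a ratio of 4.25 and −log10 q of 6.27. Its summit was 276 bp downstream of the annotated start, and the peak ended 40 bp short of that start, inside the gene. The low end of Acadsb, an acyl-CoA dehydrogenase gene, lies 83 bp from the high end of Ikzf5, so this peak counts for both genes and cannot be given to either. Its ratio was below the median strongest ratio of 4.71 over all genes with a peak at an end, and its width was below the median of 854 bp over all peaks.

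Ikzf4 encodes Eos. The gene, with the identifier 22781, lies at chr10:128630839-128669671 and is 38.8 kb long. It had no peak at an end or in the body, which was also true of 43.6% of 2605 genes of similar length. The interval without a peak around it was 47.4 kb, which also held the neighbouring gene Suox. Yet its flanks held 10 peaks, more than those of any other member. Another gene was nearest for each of the 10. The strongest lay at chr10:128547927-128549171 by the ribosomal protein gene Rpl41, with a ratio of 9.52, 82.0 kb from Ikzf4. The next were at chr10:128695416-128696233 by Pmel and at chr10:128747438-128749138 by Pym1, both with a ratio of 6.18. Nearer to Ikzf4, a peak by the ribosomal protein gene Rps26, 4.62 kb away, had a ratio of 4.30, and one by Suox, 4.49 kb away, had a ratio of 2.38. The window holds 11 other protein-coding genes. That of Ikzf3 also holds 11, with 5 flank peaks, that of Ikzf5 holds 7, with 0, and that of Ikzf1 holds 3, with 3.

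Ikzf2 encodes Helios. The gene, with the identifier 22779, lies at chr1:69531207-69687351 and at 156.1 kb is the longest of the family. It had no peak at its ends, in its body or within 100 kb. All 3 were without a peak in 23.1% of protein-coding genes, and in 15.8% of 953 genes of similar length. These shares were not matched for neighbouring genes, and the window of Ikzf2 holds 0 other protein-coding genes. Of the genes of similar length, 37.9% had no peak at an end or in the body. The nearest peak was 1310 kb away, at chr1:70997335-70997785, with a ratio of 2.10 and −log10 q of 0.183, and on the other side the nearest was 2492 kb away, at chr1:67038354-67038772, with a ratio of 2.78. The interval between them measured 3.96 Mb and also held Cps1, Erbb4, Spag16 and Vwc2l. It was the 50th longest of 22927 intervals between neighbouring peaks, whose median was 20.6 kb. The absence of a listed peak does not show that the mark was absent, because the total depth of the libraries is unknown. It is also not known whether the list used here holds every peak called in this interval, so its length and place hold for this list alone.

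Over the family, 16 of the 18 flank peaks were nearer to another gene, and 13 of those had their summit within 1 kb of that gene's end. Most flank peaks thus lay at the ends of neighbouring genes. Counting only peaks whose nearest protein-coding gene end belonged to the member left 17 peaks at Ikzf1, 1 each at Ikzf3 and Ikzf5, and 0 at Ikzf4 and Ikzf2. The order of the members by number of peaks was then Ikzf1, followed by Ikzf3 and Ikzf5 together, then Ikzf2 and Ikzf4 together. By strongest ratio at the ends and in the body it was Ikzf1 at 10.1, then Ikzf5 at 4.25 and Ikzf3 at 4.22, a difference for which there is no error to set it against.

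The families of Runx factors and of E proteins, which work beside Ikaros in early blood cells, served as a comparison, without a test. In the Runx family, Runx1, needed for the origin of blood stem cells, had 20 peaks at its ends and in its body and a strongest ratio at an end of 10.1, while Runx2 and Runx3 had 2 and 1 such peaks, none at an end. Cbfb, the partner of all Runx proteins, had 1 peak at an end with a ratio of 4.37. A peak at an end was found at 2 of the 4 genes of the Runx list and at each of the 3 E protein genes, against 36.2% of all genes. Their numbers at the ends and in the body were 36 for Tcf4, 9 for Tcf12 and 4 for Tcf3. Their strongest ratios at an end were 3.70, 6.86 and 4.68, and Tcf4 reached 9.98 in its body. Runx1 and Tcf4, like Ikzf1, each had more peaks at the ends and in the body than the other genes of their family together. These counts were not set against gene length. Tcf4 is 344.5 kb long, Tcf12 267.6 kb and Tcf3 24.4 kb. In the other list, Runx1 is 224.6 kb long, Runx2 318.8 kb, Runx3 57.3 kb and Cbfb 47.3 kb.

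The partners of Ikaros proteins were next read from lists. The NuRD complex couples nucleosome remodelling to histone deacetylation, and each of its 13 listed genes had a peak at an end, against 36.2% of all genes, with a median strongest ratio of 4.28 (range 2.66 to 8.23). The highest were Mta2 at 8.23, Mta3 at 6.76 and Rbbp4 at 5.998. The remodelling subunit genes Chd4 and Chd3 had 4.25 and 3.76, and the deacetylase genes Hdac2 and Hdac1 had 4.28 and 2.75. Over all genes with a peak at an end the median was 4.71, above the median of the NuRD genes. When −log10 q had to reach 5, 10 of the 13 genes had a peak at an end, against 24.0% of all genes. When the ratio had to reach 4, 9 had one, against 23.2%.

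Of the other corepressor genes, Ctbp1 (4.24), Sin3a (3.46) and Sin3b (3.28) had a peak at an end and Ctbp2 had none there, against 36.2% of all genes with one. When −log10 q had to reach 5, or the ratio 4, 1 of these 4 genes had one, and the shares over all genes were then 24.0% and 23.2%. The cereblon ubiquitin ligase, through which thalidomide analogues degrade human Ikaros and Aiolos, had peaks at an end of 4 of its 5 genes, where the share over all genes was 36.2%: Cul4a (10.7), Ddb1 (5.60), Crbn (4.804) and Rbx1 (3.70). Cul4b had none at an end. With either stricter cut, 3 of the 5 genes had one, against the same 24.0% and 23.2% of all genes. Crbn, the substrate receptor, also had a body peak with a ratio of 11.96, above that of Ikzf1.

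Of 15 genes of early lymphoid cells known as Ikaros targets, 13 had a peak at an end, against 36.2% of all genes, with a median strongest ratio of 8.42 (range 2.69 to 13.6). Many of these genes were known from earlier work on this list to carry peaks, so the count is no independent evidence. When −log10 q had to reach 5, or the ratio 4, 11 of the 15 had one, against 24.0% and 23.2% of all genes. The highest were Blnk (13.6), an adaptor of the pre-B-cell receptor, and Foxo1 and Ebf1 (both 12.4), transcription factors of early B cells. Dntt, whose enzyme adds bases at V(D)J joints, had 11.1, Il7r had 11.2, Rag1 had 9.31 and Flt3 had 6.58. Flt3 also had a body peak with a ratio of 13.3. Notch3 and Ptcra, genes of the T-cell lineage, had none at an end or in the body. Cd79b, at 2.69, and Hes1, a Notch target, at 2.90, were the weakest with a peak.

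**Figure D4:**
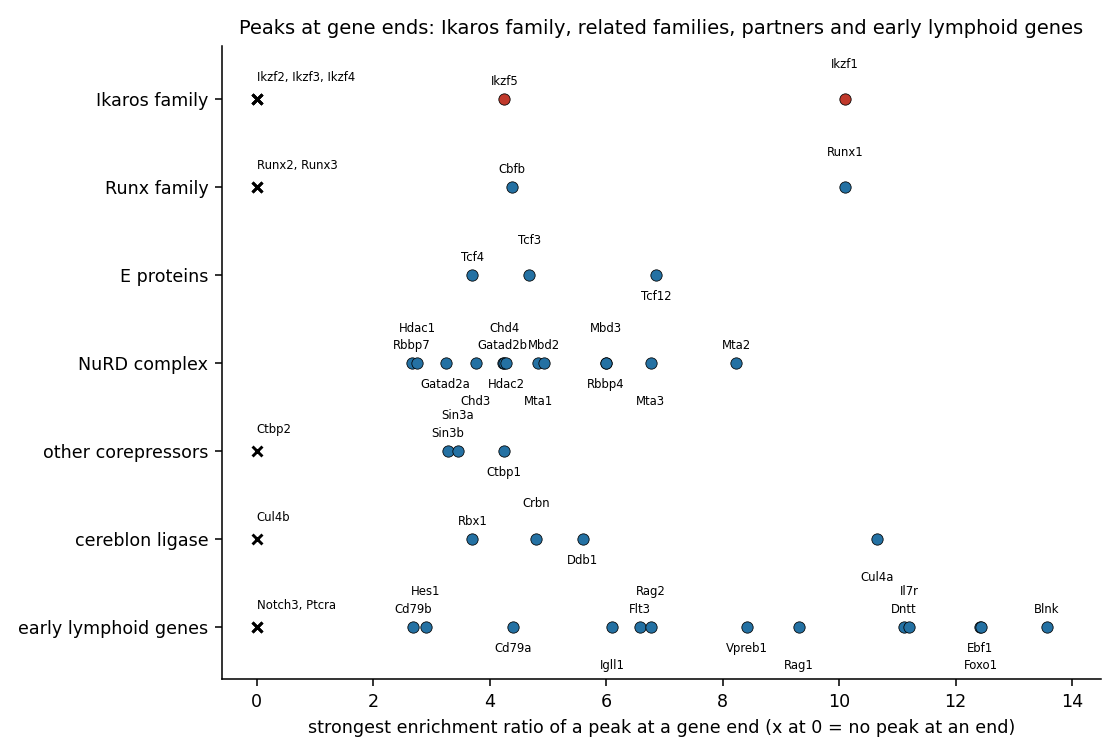
Strongest enrichment ratio of a peak at an end of each gene, for the Ikaros family (red) and the compared lists (blue), with crosses at 0 for genes without a peak at an end. Peaks classed in the body are left out. By the 1 kb rule, Ikzf1 at 10.1 lies level with Runx1, above every NuRD gene, and below Blnk at 13.6. With a window of 500 bp the value of Ikzf1 was 2.84, so its place rests on the window.

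Markers of the gate and of mature lineages were read in the same way, since the list does not separate the sorted cells by type. Of 5 markers of the sorted population, Kit, Flt3 and Ptprc (CD45) had a peak at an end, with ratios of 5.66, 6.58 and 10.8. Ly6a, which encodes Sca1, and Cd34 had none at an end or in the body. Among the B-cell genes reported here, Cd79a (4.40) and Pax5 (8.45) had a peak at an end, and Ms4a1 and Cd22 had none. None of the 5 T-cell, 5 myeloid and 5 erythroid genes had one at an end. Since 36.2% of all genes had one, lists of 5 genes say little in either direction. The part of B-lineage cells in the values at Ikzf1 and Ikzf3 was not tested, and in a list of this kind more cells with the mark and more of the mark per cell cannot be told apart.

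Genes whose pattern was most like that of a member were found by the distance over 5 standardised measures (peaks at ends, in the body and in the flanks, summed width and strongest ratio) across all 21887 genes. For Ikzf1 they were Coro2a (distance 0.761), Prkce (0.974) and Lef1 (1.08), with 14, 16 and 12 peaks at their ends and in their bodies. All 3 had a lower strongest ratio than Ikzf1, from 8.02 to 8.66. For Ikzf3 the distances were 0.0122 for Gfm1, 0.0337 for Trim11 and 0.0591 for Abtb2. Acadsb, which shares the peak, was at distance 0 from Ikzf5, followed by Atp11a and Rpgr. For Ikzf4, 120 genes were at distance 0, each with 10 flank peaks and no peak of its own, so no gene was singled out.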

How the data were processed

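H3K27ac ChIPmentation and 1 input library were made from sorted Mll3/4-deleted mouse HSC/MPP (4 and 1 libraries). The submitters' processing notes name BWA, MACS2 and the build mm10, with no versions, roles or filters. How the libraries were combined and the thresholds are not given in the sources used here beyond the name of the list, an overlap set. The deposited list has no header. Its seventh column was read as the authors' enrichment ratio over background, and the next columns as −log10 of the authors' p-value and of their q-value. The deposited score repeats the p column and was not used. Peak positions are 1-based.

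Gene positions and starts came from RefSeq tables of GRCm38.p6, the assembly behind mm10, and all listed symbols matched. The value of 1 marker gene is not reported here. The gene table has no strand or exons, so ends were used, and peaks were not placed in exons, introns or UTRs. Starts with strand were at hand for 2 members. Peaks were classed in Python 3.11.15 with pandas 2.3.3, tested on simulated data. Depth per library is unknown. Intervals were not given, since counts are of peaks in 1 list.

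The members and lists were chosen with earlier results of these data known. Named were all members, both comparison families and genes sharing a member's end peak. List genes without a peak at an end or with the 3 highest ratios were also named, as were the 3 genes most like each member with a peak. Peaks given for members are those at ends and the 3 highest in bodies and flanks. Outside this rule, the weaker flank peaks of Ikzf3 and the peaks by Rps26 and Suox near Ikzf4 were added. Any further gene was picked with its value already known. The search for zinc finger patterns set for proteins was not run, as no protein sequence was used here. Alternatives were stricter lists, other windows, merging, nearest gene and joining distance. A count or width was taken to move when it changed by more than 1.5 times, and a ratio when it changed at all.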

Additional observations from a re-analysis of the deposited data

How the results depend on the processing

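Of 154 recomputed values, 132 stayed within these limits and 22 moved. The number of members with a peak at an end was 2 under each of the 5 alternatives run for it. The number of peaks at Ikzf1, flanks included, was 18. It was 3 when −log10 q had to reach 5 and 3 when the ratio had to reach 4. Of these 3, 2 lay at the ends and in the body, and the other was the flank peak by Fignl1. The summed width at the ends and in the body was 16920 bp in both, in place of 25615 bp. At an end of Ikzf1, 1 peak was left in both. Fewer peaks enter these lists by construction. At Ikzf3 the number was 3 in both, in place of 6, and 1 by nearest gene. With flanks to 200 kb the numbers were 30 for Ikzf1, 11 for Ikzf3, 21 for Ikzf4 and 2 for Ikzf5. Merging peaks within 1 kb left 12 for Ikzf1, in place of 18, which was within the limit. Ikzf4 had 4 with flanks to 50 kb and 0 by nearest gene, in place of 10. The other corepressors had 1 gene with a peak at an end in both stricter lists, in place of 3. The widest domain at Ikzf1 was 29021 bp with peaks joined within 5 kb, 91153 bp within 20 kb and 12450 bp when −log10 q had to reach 5, in place of 59962 bp. The strongest ratio at an end of Ikzf1 was 2.84 with a window of 500 bp and with the summit rule, alternatives for this value chosen after seeing the data. Ikzf2 had 0 peaks in every setting. Without values of single libraries, none could be left out, and no weakest peak could be checked against replicates. No paired analysis was possible because no column holds a single replicate.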

Other observations

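Several body peaks of Ikzf1 could not be ranked by their p-values. The 12 peaks had 6 distinct values of −log10 p, and 4 of them shared the value 4.04. The ratios of these 4 ran from 2.72 to 2.81.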
